A study of Rattus norvegicus with 11 samples.

Results

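The cells described here carry the joint name PCT/PST in the authors' annotation of the rat kidney, that is, cells of the proximal tubule that were assigned neither to its convoluted stretch (PCT) nor to its straight stretch (PST) alone. They were chosen by that name only, and they number 13931 of the 114615 cells in the table, beside 36543 PCT and 8032 PST cells. In all 11 rats PCT/PST cells had fewer UMIs (counted transcript molecules) and a far lower mitochondrial percent than the PCT and PST cells of the same animal. They took up an area of their own at one edge of the proximal tubule on the authors' map. No difference in their share, depth, mitochondrial percent or cycle scores between lean, obese and enalapril-treated obese rats passed the adjusted threshold of 0.05 in the primary tests.

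The animals were male ZSF1 rats, which the labels give the genotype ZSF1-LeprfaLeprcp/Crl without setting the lean animals apart. They came at an age of 12 weeks and ate a high energy chow. There were 4 lean rats, 4 obese rats given vehicle in the drinking water and 3 obese rats given enalapril, an inhibitor of angiotensin-converting enzyme, by the same route. The labels do not state whether lean rats drank vehicle, what dose was reached or how long treatment lasted. Obesity in this cross comes from defects of both copies of the leptin receptor in every cell, so that overweight, high blood sugar and kidney disease come together and their parts cannot be told apart. Except for treated rat 3, the sample codes share a prefix in pairs within a group, and what the prefix stands for is not given. No prefix is shared between groups, so its part cannot be told apart from that of the group. The samples were taken as separate rats because the series counts them so.

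The proximal tubule takes back most of the filtered water, salt, glucose, amino acids, phosphate and small proteins. The convoluted part lies in the cortex and does most of this bulk uptake, while the straight part runs down into the outer medulla and secretes many organic acids and drugs. Both are packed with mitochondria that drive the sodium pump, so a high share of mitochondrial transcripts is usual for these cells. Lrp2, which encodes the endocytic receptor megalin, and Slc34a1, which encodes a sodium-phosphate cotransporter of the brush border, mark the proximal tubule. The table analysed here holds no gene values, so neither marker could be looked up and the joint name rests on the authors' annotation alone.

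Each animal gave 4232 to 18427 cells, with a median depth over all its cells of 407 to 3092 UMIs. Lean rat 2 stood apart as the shallowest, at 407 UMIs, while the next lowest animal had 1132. Many of the results that rest on it are given with and without it, and the others with all animals only. The deposited cells reached at most 2971 genes and 49.99% mitochondrial transcripts. The percent is not the whole number of molecules divided by the deposited UMI total. Among cells above 0%, its product with that total came out whole to within 0.0001 in 0.116% of cells, so the molecules behind it are unknown. Of the PCT/PST cells, 424 (3.04%) had a barcode that also occurred in another library, against 2.86% of all cells, and 40 shared both the barcode and the PCT/PST name with such a cell. No source used here says whether doublets were removed before deposit.

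PCT/PST cells did not lie between PCT and PST on the map. Their median position was 6.76 map units from that of PCT and 8.42 from that of PST, while PCT and PST were 5.83 apart. The median PCT/PST cell lay 6.75 units to the side of the line that joins the other pair of medians. On the first map coordinate 90% of PCT/PST cells fell between -8.70 and -5.85, and 90% of PCT cells between -5.30 and 4.00, so that the types met along one border. Only 193 PCT/PST cells were to the right of -5. Among the 20 nearest cells of a PCT/PST cell, 92.2% had the same name, 4.73% were PCT, 0.314% were PST and 2.74% were of other types. The corresponding shares with the same name were 96.8% for PCT and 97.0% for PST. The names and the map come from the same cells, so these values describe the annotation and were not tested.

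**Figure D1:**
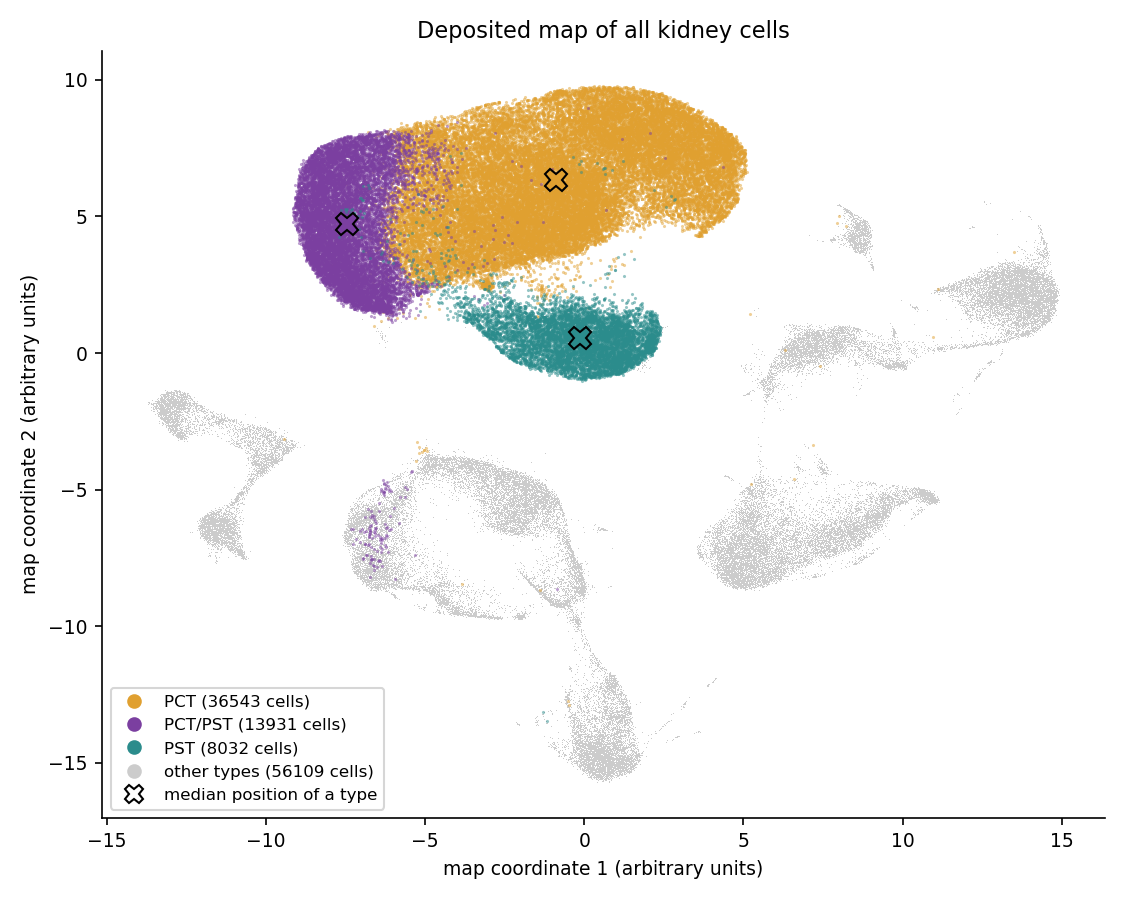
Position of each cell on the authors' 2-dimensional map (both axes in arbitrary units), with PCT, PCT/PST and PST cells coloured, all other types in grey and crosses at the median position of each proximal tubule type. PCT/PST cells fill the left edge of the proximal tubule area and border on PCT, and 115 of them lie far below among other types.

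The border was present in every animal. The share of neighbours with the PCT/PST name ran from 89.0% in lean rat 1 to 93.8% in obese rat 4, and the share named PCT from 3.69% to 6.63%. The area was not that of 1 animal either. Lean rats gave 1236, 372, 874 and 1153 of the PCT/PST cells, obese rats 1164, 619, 839 and 2930, and treated rats 2631, 1243 and 870. In most animals the share of neighbours from the same rat was close to that rat's share of all PCT/PST cells. The widest departure was treated rat 2, with 13.4% of neighbours from the same rat against 8.92% of the cells.

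Among all PCT/PST cells, 115 (0.825%) lay outside this area, below -3 on the second map coordinate. Of their 20 nearest cells, 56.3% were named DCT and 29.4% DCT/CNT, names used for the distal and connecting tubule, and 9.65% were PCT/PST. Pooled over animals, their median was 12.3% mitochondrial transcripts, beside 2.07% in all PCT/PST cells and 15.1% in PCT cells. The values of DCT and DCT/CNT cells were not set beside it. Their median depth was 1902 UMIs. The lean rats held 29, 0, 10 and 14 of these cells, the obese rats 9, 4, 5 and 2, and the treated rats 16, 19 and 7. This set was noticed on the map and has no test.

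PCT/PST cells were shallower than their neighbours in the tubule. Lean rats 1 to 4 had 1096.5, 320, 1437 and 1757 UMIs in the median PCT/PST cell, obese rats 1 to 4 had 1318, 1153, 1902 and 1936, and treated rats 1 to 3 had 836, 2331 and 1338. The groups overlapped throughout, and lean rat 2 was lowest. Set against PCT of the same animal, the log2 difference of the medians was -0.60 ± 0.27 (SD, n = 11), which is a ratio of 0.659, and PCT/PST was lower in 11 of 11 animals. Against PST it was -0.45 ± 0.28 (SD, n = 11), a ratio of 0.733, again lower in 11 of 11. Without lean rat 2 the differences were -0.62 ± 0.27 and -0.46 ± 0.29.

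The number of genes detected followed the depth. The median PCT/PST cell had 574, 214.5, 692 and 826 genes in lean rats, against 642, 603, 860 and 855.5 in obese rats and 468, 1000 and 655 in treated rats. The log2 difference was -0.34 ± 0.18 to PCT, lower in 11 of 11 animals, and -0.20 ± 0.20 to PST, lower in 9 of 11. The exceptions against PST were lean animals.

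**Figure D2:**
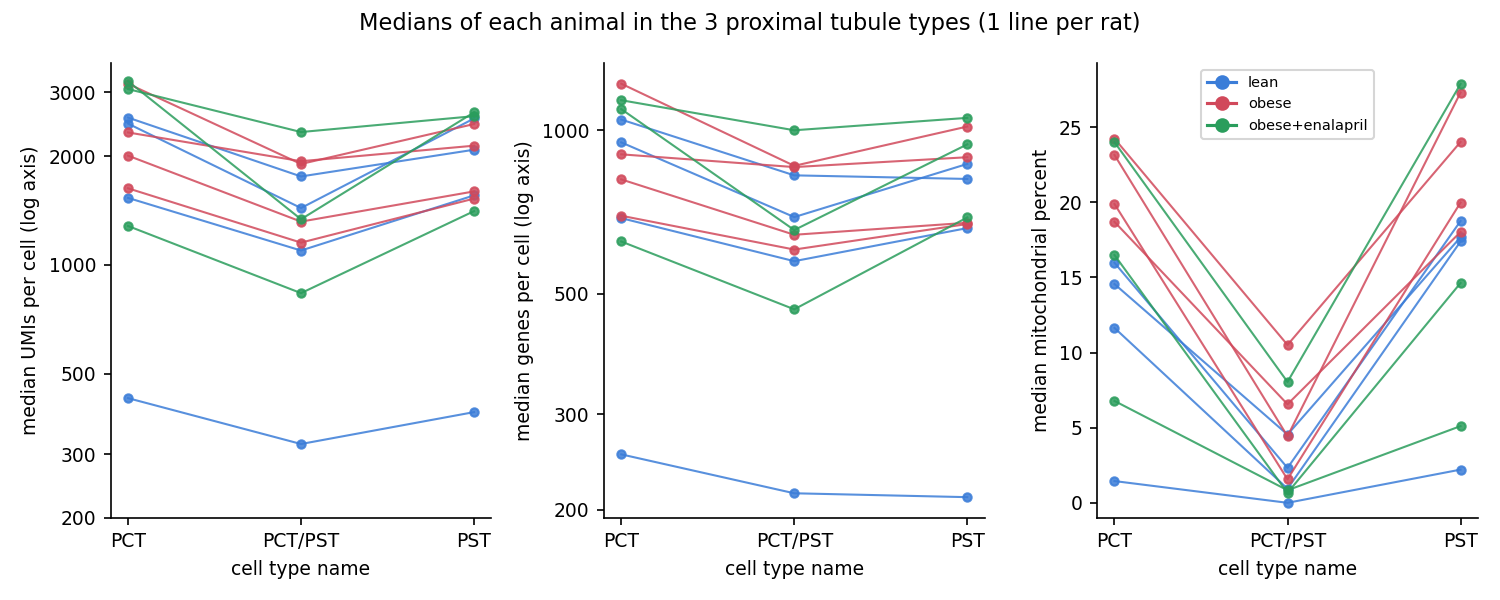
Median UMIs per cell (left, log axis), median genes per cell (middle, log axis) and median mitochondrial percent (right) of PCT, PCT/PST and PST cells, with each line joining the 3 values of 1 rat and colour giving the group. Every line dips at PCT/PST in the left and right panels, and the lowest line in the first 2 panels is lean rat 2.

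The mitochondrial percent of PCT/PST cells was also below that of both other types. Its median in PCT/PST cells was 4.54%, 0%, 2.32% and 0.940% in lean rats, 4.43%, 10.5%, 6.56% and 1.57% in obese rats and 0.836%, 0.662% and 8.05% in treated rats. In the same animals the PCT medians ran from 1.45% in lean rat 2 to 24.2% in obese rat 2, and the PST medians from 2.21% to 27.9%. The difference was -12.4 ± 5.23 percentage points to PCT and -13.9 ± 6.21 to PST (SD, n = 11), with PCT/PST lower in 11 of 11 animals for each. Without lean rat 2 it was -13.5 ± 3.96 and -15.0 ± 5.12 points. Over all cells together, 40.3% of PCT/PST cells were under 1% mitochondrial, against 4.27% of PCT and 2.54% of PST cells. Of all types measured in an animal, PCT/PST had the lowest median, or tied for it, in 6 of 11 animals, and its rank in the others went up to 8.

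**Figure D3:**
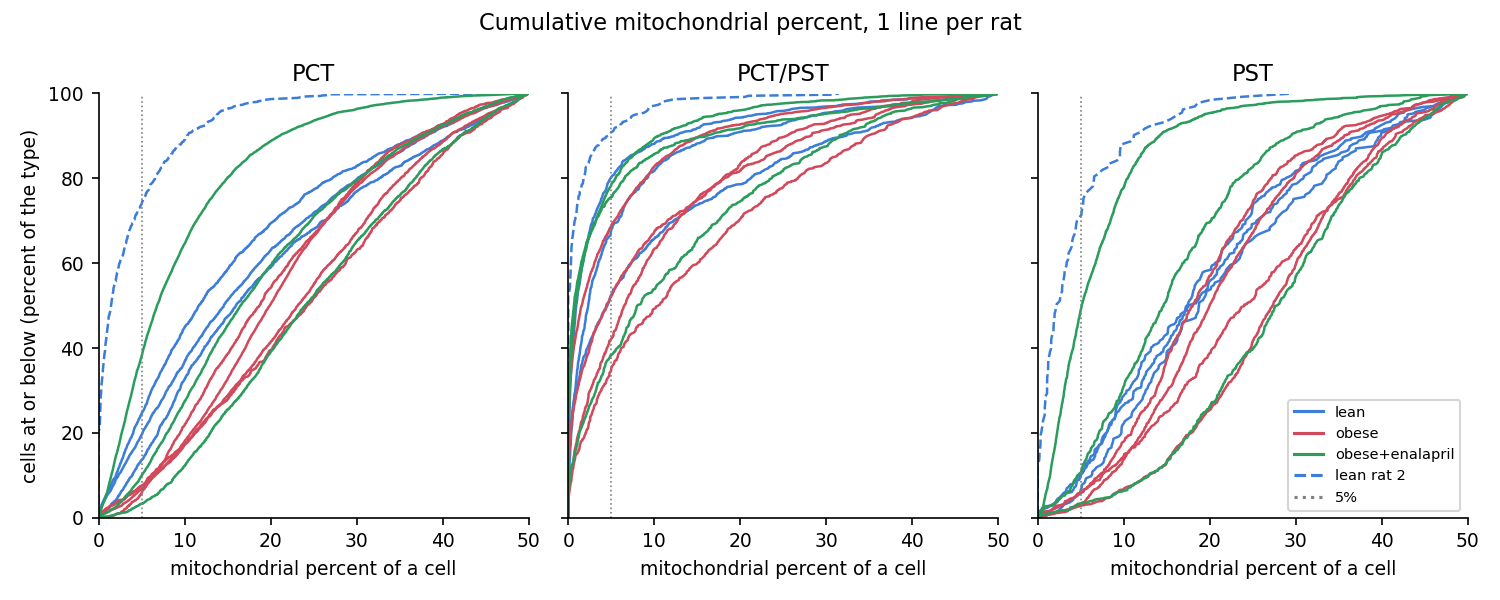
Cumulative percent of cells (vertical axis) at or below a given mitochondrial percent (horizontal axis) in PCT, PCT/PST and PST cells, with 1 line per rat coloured by group, lean rat 2 dashed and a dotted line at 5%. In PCT/PST cells the lines reach 35.1% to 90.9% at the 5% mark and spread widely between animals, against 3.27% to 73.9% in PCT and 2.84% to 70.7% in PST cells. Each upper end is lean rat 2, and without it the highest values are 80.2%, 38.1% and 49.0%.

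Many PCT/PST cells were listed with exactly 0% mitochondrial transcripts. These were 2153 cells (15.5%), against 326 PCT cells (0.892%) and 31 PST cells (0.386%). Lean rat 2 held 197, 219 and 17 of them, and without it the shares were 14.4%, 0.302% and 0.177%. They were not the shallowest members: in 11 of 11 animals their median UMIs exceeded that of all PCT/PST cells of the animal. Among cells with at least 1000 UMIs, 17.9% of PCT/PST cells were at 0%, against 0.368% of PCT and 0.178% of PST cells. Over the 10 animals with such PCT/PST cells the share was 14.9% ± 8.98 (SD), from 3.88% to 31.7%. Lean rat 2 had 0 PCT/PST cells of this depth, its deepest having 833 UMIs. No source used here says what a value of exactly 0 stands for in the authors' processing.

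The difference in mitochondrial percent was also present at matched depth. Among cells with 500 to under 1000 UMIs, PCT/PST cells were lower than PCT by 11.5 ± 5.47 points and lower than PST by 11.9 ± 5.38 points (SD, n = 11), in 11 of 11 animals for each. With 1000 to under 2000 UMIs the differences were -17.4 ± 5.04 and -17.3 ± 5.57 points (SD, n = 10), lower in 10 of 10 animals. The deficit in genes, by contrast, was not seen at matched depth. In the shallower range PCT/PST cells had 10.5 ± 21.4 genes more than PCT, higher in 8 of 11 animals, and 25.2 ± 22.1 more than PST, higher in 10 of 11. In the deeper range they had 47.6 ± 30.3 and 52.0 ± 46.4 genes more, higher in 9 of 10 animals against each type. Within these ranges PCT/PST cells still had fewer UMIs than PCT, by 36.2 ± 24.4 in the shallower and 59.9 ± 42.0 in the deeper range.

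PCT/PST cells also differed among themselves along the second map coordinate. Cut into 4 strips with equal numbers of cells from the bottom to the top of the map, a cut chosen after the map had been seen, their median depth was 701, 1025, 1617 and 3244 UMIs. The rise held at each step in 11 of 11 animals, with a ratio of top to bottom of 1.68 to 6.14 and a median ratio of 4.60. Median genes went from 414 to 1257. The mitochondrial percent ran the other way, at 5.33%, 2.62%, 1.41% and 0.677%. It fell at each step in 9 of 11 animals, and the top strip was below the bottom strip in 11 of 11. By their medians, the top strip was thus deeper and lower in mitochondrial percent than the bottom strip, which includes the 115 outlying cells. Cell by cell the 2 measures were less tied. PCT/PST cells under 5% mitochondrial had higher median UMIs than those at 20% or more in 8 of 11 animals. Among these is lean rat 2, which had only 4 cells at 20% or more. The order was the other way in lean rats 3 and 4 and in obese rat 4.

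**Figure D4:**
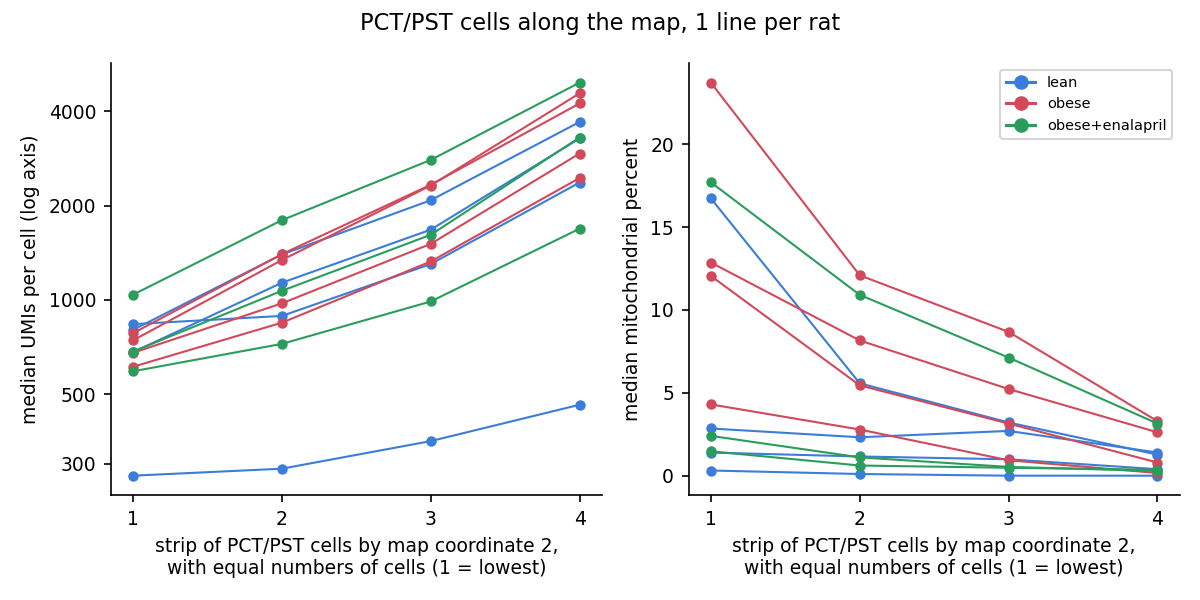
Median UMIs (left, log axis) and median mitochondrial percent (right) of PCT/PST cells in 4 strips of the second map coordinate with equal numbers of cells (1 = lowest), with 1 line per rat coloured by group. All 11 lines rise on the left, and on the right the top strip of each animal is below its bottom strip.

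The bottom strip differed most between animals. Its median mitochondrial percent was 16.7% in lean rat 1, 23.7% in obese rat 2 and 17.7% in treated rat 3, but 0.313% in lean rat 2 and 1.39% in lean rat 4. In the top strip the animals lay between 0% and 3.29%. Inside each animal the rank correlation of UMIs with mitochondrial percent over PCT/PST cells was negative in 10 of 11 rats, with a mean rho of -0.172. It is a weak relation between 2 measures of the same library and serves as a description only.

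The deposited S and G2M scores, which rate each cell on genes of DNA replication and of cell division, were slightly higher in PCT/PST cells. The mean S score exceeded that of PCT by 0.00951 ± 0.00301 and that of PST by 0.00817 ± 0.00342 (SD, n = 11), in 11 of 11 animals for each. The mean G2M score exceeded that of PCT by 0.00779 ± 0.00288 in 11 of 11 animals and that of PST by 0.00590 ± 0.00335 in 10 of 11. Phase calls made from the scores put 30.2% of PCT/PST cells in S, 20.1% in G2M and 49.7% in G1, against 59.4% of PCT and 57.9% of PST cells in G1. Cells with a high score were rare. An S score over 0.2 occurred in 10 of 13931 PCT/PST, 15 of 36543 PCT and 4 of 8032 PST cells. A G2M score over 0.2 occurred in 17, 16 and 2 of the same cells. Relative to the size of the type, both counts were highest in PCT/PST cells, though they rest on few cells. The scores can depend on depth and on free RNA in the droplets, whose part was not tested, so the phase calls are not read as cycling. At 500 to under 1000 UMIs the S score was still higher than in PCT in 11 of 11 animals, by 0.00465 ± 0.00302. The G2M score was higher than in PCT in 7 of 11, by 0.00142 ± 0.00303. At 1000 to under 2000 UMIs both scores were higher than in PCT in 10 of 10 animals, by 0.00764 ± 0.00254 for S and 0.00410 ± 0.00354 for G2M (SD). The S score exceeded that of PST by 0.00502 ± 0.00413 in the shallower range (10 of 11 animals) and 0.00681 ± 0.00288 in the deeper (10 of 10). For the G2M score the excess over PST was 0.00052 ± 0.00353 (7 of 11) and 0.00259 ± 0.00323 (7 of 10). At matched depth the G2M difference to PST was thus smaller than its spread.

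Obese and lean rats were then compared in their PCT/PST share. PCT/PST cells made up 11.1%, 8.79%, 11.3% and 17.8% of all cells in lean rats, 10.7%, 8.78%, 7.27% and 15.9% in obese rats and 14.7%, 10.9% and 11.2% in treated rats. The 3 ranges overlapped. The means were 12.3% ± 3.88 (SD, n = 4), 10.7% ± 3.76 (SD, n = 4) and 12.2% ± 2.12 (SD, n = 3). edgeR's quasi-likelihood test gave a log2 fold change of -0.20 ± 0.38 (SE) for obese against lean rats (adjusted p = 0.601), 0.20 ± 0.41 for treated against obese rats (adjusted p = 0.680) and -0.00 ± 0.41 for treated obese against lean rats (adjusted p = 0.991). In the same fits 60%, 0% and 15% of the 20 cell types tested were called, and PCT/PST was not among them. The sign against lean rats was not fixed, since counting without immune cells gave 0.20 for obese and 0.07 for treated rats.

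Within the proximal tubule PCT/PST cells made up 23.3%, 23.8%, 28.3% and 29.6% in lean rats, 22.2%, 24.7%, 21.0% and 28.1% in obese rats and 22.3%, 19.3% and 20.4% in treated rats. All treated animals were below all lean animals, while the obese rats overlapped with both. This share also moves with the other members of the proximal tubule. PCT made up 30.3% ± 5.56 of all cells in lean, 24.2% ± 6.21 in obese and 39.2% ± 3.52 in treated rats (SD). For PST the values were 3.64% ± 1.49, 8.87% ± 2.49 and 7.41% ± 1.14. The log2 fold change was -0.13 ± 0.14 (SE) for obese against lean rats (adjusted p = 0.383), -0.22 ± 0.15 for treated against obese rats (adjusted p = 0.425) and -0.35 ± 0.15 for treated obese against lean rats (adjusted p = 0.0827, unadjusted p = 0.0389, edgeR). Among 17 types set against their own compartment, 23.5%, 5.88% and 29.4% were called in these comparisons, and 47.1% had an unadjusted p under 0.05 in the last of them. No relation of the PCT/PST share with the quality of the other cells passed over the 11 animals. Its correlation with the median UMIs of all other cells was r = -0.102 (Spearman's rho = -0.327, permutation p = 0.769 and 0.326). That with their median mitochondrial percent was r = -0.227 (rho = -0.282, permutation p = 0.503 and 0.401). After adjustment over the 2 relations the p-values were 0.769 for each r and 0.401 for each rho. Without the 2 animals farthest from the median of the depth or of the mitochondrial percent, r was -0.00 and -0.09.

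**Figure D5:**
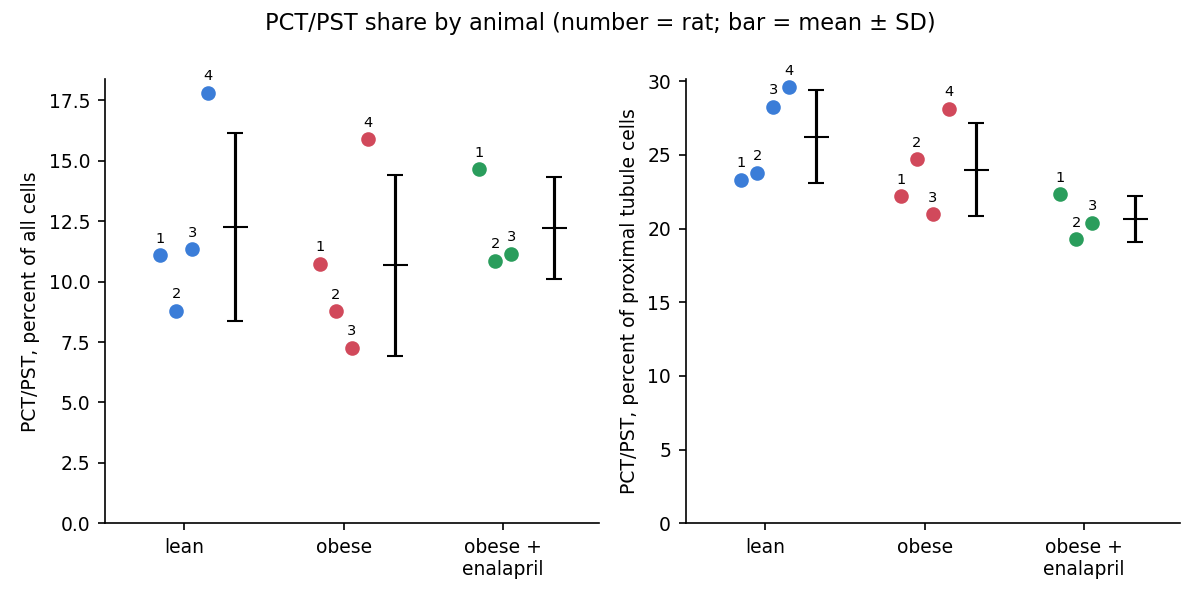
PCT/PST cells as a percent of all cells (left) and of proximal tubule cells (right) in each rat, numbered as in the labels, with bars at the mean ± SD of the group. The groups overlap on the left, and on the right the 3 treated rats, at 19.3% to 22.3%, are below the 4 lean rats.

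No difference between groups in the depth or mitochondrial percent of PCT/PST cells passed limma's test over 18 types. Median UMIs differed between obese and lean rats by 0.66 ± 0.56 on the log2 scale (SE, adjusted p = 0.368), a value that fell to 0.13 ± 0.39 without lean rat 2. They differed between treated and obese rats by -0.16 ± 0.61 (adjusted p = 0.927) and between treated and lean rats by 0.50 ± 0.61 (adjusted p = 0.687). No type was called for this measure (0%). The median mitochondrial percent was 1.95% ± 1.97 in lean, 5.77% ± 3.77 in obese and 3.18% ± 4.22 in treated rats. The difference was 3.81 ± 2.61 points for obese against lean rats (adjusted p = 0.385, 95% interval -1.92 to 9.55), while 5.56% of types were called. Treated rats differed from obese rats by -2.58 ± 2.82 points (adjusted p = 0.697) and from lean rats by 1.23 ± 2.82 (adjusted p = 0.880), with 0% and 5.56% of types called.

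The percent of PCT/PST cells under 5% mitochondrial was 52.5%, 90.9%, 67.7% and 80.2% in lean rats, 52.3%, 35.1%, 42.2% and 68.8% in obese rats and 78.3%, 75.5% and 38.3% in treated rats. The groups overlapped. The lean mean was 72.8% ± 16.5, or 66.8% ± 13.9 without lean rat 2, and the obese mean 49.6% ± 14.6 (SD). With all animals, obese rats differed from lean rats by -23.2 ± 13.7 points (limma, adjusted p = 0.281), with 11.1% of the 18 types called. Among cells with 500 to under 1000 UMIs the same difference was -41.2 points and was called (adjusted p = 0.0386), as were 27.3% of the 11 types that could be tested. It was no longer called when lean rat 2, which has 48 cells of at least 500 UMIs, was also left out (-34.9 points, adjusted p = 0.137, with 18.2% of types called). Treated rats differed from obese rats by 14.4 ± 14.8 points (adjusted p = 0.807).

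Cycle scores and phase calls were compared in the same way. Cells called G2M were 16.7%, 15.1%, 17.6% and 17.4% of PCT/PST cells in lean rats, 19.5%, 23.1%, 23.5% and 21.2% in obese rats and 23.6%, 16.4% and 19.7% in treated rats. All obese animals were above all lean animals, and the treated animals spread over both. The lean mean was 16.7% ± 1.17, or 17.3% ± 0.459 without lean rat 2, and the obese mean 21.8% ± 1.84 (SD). Over all animals the difference between obese and lean rats was 5.11 ± 2.33 points (limma, adjusted p = 0.154, unadjusted p = 0.0376). Of the 18 types, 16.7% were called in that fit and 27.8% had an unadjusted p under 0.05. The mean S score differed by 0.00458 ± 0.00186 (limma, adjusted p = 0.0979, unadjusted p = 0.0287) and by 0.00378 ± 0.00196 without lean rat 2 (adjusted p = 0.204). With all animals, 33.3% of types had an unadjusted p under 0.05 and 0% were called after adjustment. The mean G2M score differed by 0.00505 ± 0.00394 (limma, adjusted p = 0.529). It was called without lean rat 2 (0.00743, adjusted p = 0.0419), together with 44.4% of types, and at 500 to under 1000 UMIs (0.00801, adjusted p = 0.0363), together with 27.3%. With both restrictions it was not (0.00843, adjusted p = 0.0564, with 18.2% of types called). Median depth in PCT/PST cells was 1153 to 1936 UMIs in obese and 320 to 1757 in lean rats, or 1096.5 to 1757 without lean rat 2, and its part in the scores was not tested.

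The distance of PCT/PST cells from PCT and PST within an animal was compared between groups for depth, genes, mitochondrial percent and scores. The 36 exact two-sided permutation tests could not have passed, since with 12 tests of 4 against 4 animals and the rest of 3 against 4 the smallest adjusted p they allow is 0.0571. They are therefore read as no evidence for or against a difference. The lowest unadjusted p was 0.0571, for the mitochondrial difference to PCT in obese against lean rats, where 4 against 4 animals allow 0.0286. With p-values from absolute differences, the form that was computed first, a call needed many of the 36 tests to reach their smallest p, 0.0286, together. In that form 0 of 36 passed, which is likewise read as no evidence for or against a difference. The mitochondrial difference to PCT was -8.96 ± 5.25 points in lean, -15.7 ± 3.29 in obese and -12.6 ± 5.74 in treated rats.

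On the map, the mean position of PCT/PST cells along the line from PCT (0) to PST (1) was 0.193, 0.160, 0.166 and 0.151 in lean rats, 0.136, 0.133, 0.132 and 0.112 in obese rats and 0.151, 0.143 and 0.160 in treated rats. All obese animals were nearer the PCT end than all lean and all treated animals. The difference between obese and lean rats was -0.0393 (exact two-sided permutation p = 0.0286, adjusted p = 0.0857 over 3 comparisons), and that between treated and obese rats 0.0233 (exact p = 0.0571, adjusted p = 0.0857). Both p-values are the smallest that the form used allows, 2 times the smaller tail, and over 3 comparisons no adjusted p under 0.0571 can arise, so that no outcome could have passed. The absolute-difference form was the one computed first, and it was replaced after its results had been seen. It gives each of these comparisons an adjusted p of 0.0429. Whether there is a call thus hangs on the form of the test. The differences also changed when the 115 outlying cells were left out, and when cells under 500 UMIs were dropped. The part of depth was not tested. Without the outlying cells the differences were -0.0266 and 0.0148 (adjusted p = 0.0857 and 0.343). With cells of at least 500 UMIs only, obese minus lean turned to 0.0163, because lean rat 2 stood at -0.0809 on 48 cells, and without that animal it was -0.0451 (adjusted p = 0.0857).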

How the data were processed

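Droplet single-cell RNA sequencing was run on kidney cells of 11 rats, with 10000 cells loaded per reaction per the labels' protocols. Per the submitters' processing notes, rn6, Seurat 4.3.0 and Cell Ranger 7.0.1 were used, in roles left unnamed. No source used here gives the filters on cells, the clustering or the naming of types. The file is a table of cells with UMI and gene counts deposited by the authors, not normalized. It also gives a mitochondrial percent deposited by the authors, with a denominator that is not stated, S and G2M scores deposited by the authors with a phase, and the type and map coordinates (a score without a fixed range, deposited by the authors). Animals and groups came from the labels.

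The animal was the replicate. Cells per type were fitted with edgeR 4.0.16 (quasi-likelihood, 20 types with a mean of at least 10 cells per animal, all cells of the animal as library size, or 17 types with the cells of the compartment). Medians, percents and mean scores of types with at least 20 cells were fitted with limma 3.58.1 (18 types), UMIs and genes on the log2 scale. All 3 groups entered 1 fit with 3 contrasts. Benjamini-Hochberg adjustment ran over types, with a threshold of 0.05. Differences within animals and map positions were compared by exact two-sided permutation over animals, and correlations with 100000 permutations. Fold changes are given with SE. Alternatives included DESeq2 1.42.0, other denominators and depths, and each animal left out. Work was done in Python 3.11.15 (pandas 2.3.3, numpy 2.4.6, matplotlib 3.10.9, scipy 1.17.1) and R 4.3.3. Scripts were tested on simulated data. No gene is named with a value, and types other than PCT/PST, PCT and PST are named only where map neighbours concern them. PCT/PST cells, the 5% limit and the comparisons were chosen with earlier results of these data known.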

Additional observations from a re-analysis of the deposited data

Results flagged for a closer look

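Within the 4 lean rats, lean rat 2 lay far from the other animals in 2 of the 24 sets of 4 values examined for a single distant animal. About 1 in 20 such sets would be picked out by chance. Its share of PCT/PST cells called S was 9.41%, against 29.7%, 30.1% and 32.2% in the other lean rats. Its mean G2M score was -0.0163, against -0.0265, -0.0260 and -0.0249. In the same animal 87.1% of PCT/PST cells had under 500 UMIs, against at most 3.55% in any other rat, and the part of depth in these values was not tested.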

How the results depend on the processing

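In all, 704 alternative values were computed for 48 results, and 640 of them were tested. Of the 704, 658 kept their direction and, where tested, their side of the threshold, 41 changed sign and 5 passed the threshold. None of the 41 tested main results was past it, and 9 of these, permutation tests over few animals, could not have been. Alternatives of these 9 in the same form of test, with as many animals or fewer, could not pass either. Nor could the exact permutation alternatives of the edgeR and limma results in comparisons with treated rats. There 3 against 4 animals allow no p under 0.0571. The unchanged side of all these alternatives was fixed in advance and says nothing about stability. Without immune cells the PCT/PST share of all cells differed by 0.20 (obese minus lean), -0.13 (treated minus obese) and 0.0668 (treated minus lean). The last was 0.0291 with limma and with the permutation test, 0.00132 with DESeq2 size factors, 0.14 with at least 500 UMIs and 0.0721 under 20% mitochondrial. The share of proximal tubule cells, obese minus lean, was 0.0262 with at least 500 UMIs. Differences in median UMIs and genes are on the log2 scale in this section, except where said to be counted in genes. Median genes, treated minus obese, differed by 0.00404 at 500 to under 1000 UMIs. Treated minus lean, they differed by -0.00903 with at least 1000 UMIs, where the percent under 5% mitochondrial differed by 4.22. At 500 to under 1000 UMIs, treated minus obese was 1.49 for the percent called S and 0.000531 for the S score. In that range obese minus lean was -41.2 for the percent under 5% and 0.00801 for the G2M score, both then past the threshold. On the map axis, at least 500 UMIs gave 0.0163 (obese minus lean) and 0.0450 (treated minus lean). The p from absolute differences, which was computed first and replaced after its results were seen, put -0.0393 (obese minus lean) and 0.0233 (treated minus obese) past it (adjusted p = 0.0429 each). In the deeper range of 1000 to under 2000 UMIs, medians counted in genes differed by -7.42 (treated minus obese) and -7.17 (treated minus lean).

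With 1 animal left out, the share of all cells ranged from -0.46 to 0.0358 (obese minus lean, positive without lean rat 4) and from -0.16 to 0.23 (treated minus lean). Treated minus obese, median UMIs ranged from -0.54 to 0.20, median genes from -0.40 to 0.15 and the percent called S from -9.33 to 2.66, each turning without treated rat 1. Treated minus lean, median UMIs ranged from -0.0288 to 0.86, genes from -0.0327 to 0.65, mitochondrial percent from -1.20 to 2.49, the percent under 5% from -15.9 to 4.09 and the percent called S from -1.18 to 10.8. The G2M score, obese minus lean, ranged from 0.00314 to 0.00743. At 500 to under 1000 UMIs, medians counted in genes ranged from -16.0 to 35.6 (obese minus lean) and -26.1 to 19.4 (treated minus obese). Treated minus lean, they ranged from -13.5 to 40.1, and mitochondrial percent at the same depth from -0.797 to 3.92. The G2M score passed without lean rat 2.

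Replicate numbers are shared between groups, but only 5 of 10 same-numbered pairs correlated above 0.1, so they were not taken as pairs, although 8 animals correlated best with their own number. With the replicate block no result passed the threshold. It turned the share of all cells, treated minus lean, to 0.23, and median UMIs and genes, treated minus obese, to 0.0379 and 0.0359. TMM factors and DESeq2 size factors were not run for the share of proximal tubule cells, because they replace the compartment total. Rarer members in shallow animals limit precision: lean rat 2 has 372 PCT/PST cells.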
